A study of Mus musculus with 9 samples.

Results

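The mouse mitochondrial genome encodes 37 genes, and all of them were rows of the count tables of knee joint RNA described here. They were chosen by symbol, as every gene whose GRCm38 symbol starts with mt-, and made up 37 of 53379 gene IDs. Of the 37, 13 encode proteins, 2 encode ribosomal RNAs and 22 encode transfer RNAs. Counts were high enough for a test in 16 of them, which were the 13 protein-coding genes, both rRNA genes and mt-Tp, the proline tRNA gene.

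RNA came from whole knee joints in 3 groups with 3 libraries each. In the PC2 group, male C57BL/6 mice had their anterior cruciate ligament cut at 8 weeks of age (ACLT, a surgical model of osteoarthritis). A lentivirus expressing PC2 was put into the joint 1 week after the operation, and joints were taken 8 weeks after the virus. The Luc group had the same operation and schedule with a lentivirus that expressed Luc instead. The Non surgery group had neither operation nor virus, and their age is not stated in the labels. The labels do not spell out PC2.

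The RNA of a group was mixed before sequencing, and its 3 libraries are technical repeats of that 1 pool. All standard deviations and p-values below therefore measure spread between technical repeats and say nothing of differences between mice. Library totals lay between 17835989 and 19004316 gene counts. Per-gene levels are CPM (read counts on a common scale of library size, here with TMM factors), and levels of different genes are compared only as CPM per kb of gene. Differences were tested with edgeR's quasi-likelihood test, and a gene rose or fell where its Benjamini-Hochberg adjusted p over all 17478 genes tested was under 0.05. Marker lists for cartilage (14 genes), fast muscle (18 genes) and the other tissues of a joint had no gene at 0 in any group, so the libraries held muscle RNA beside joint tissue.

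The mitochondrial genome is a small circle present in many copies per cell. It is transcribed from both strands as long precursors, which are cut mainly at the tRNA genes into mRNAs, rRNAs and tRNAs. Its 13 proteins are subunits of respiratory complexes I, III, IV and V, and all other subunits are encoded in the nucleus and imported. Skeletal muscle, above all its oxidative fibres, is rich in mitochondria, while articular chondrocytes have few and rely mostly on glycolysis.

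Mitochondrial transcripts took a smaller share of the counts in both operated groups than in unoperated joints. The 37 genes took 5.79%, 5.57% and 5.80% of gene counts in the 3 PC2 libraries, 5.80%, 4.998% and 5.19% in the Luc libraries and 10.9%, 9.05% and 9.87% in the Non surgery libraries. Every operated library lay below every unoperated one, and the PC2 and Luc libraries overlapped. Counting error was small beside these differences, with Wilson 95% intervals no wider than 0.0143 percentage points to either side.

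The group means were 5.72% ± 0.129 in PC2, 5.33% ± 0.418 in Luc and 9.94% ± 0.916 in Non surgery libraries (SD, n = 3 each). The difference of Luc from Non surgery was -4.61 percentage points, and an exact two-sided permutation test gave p = 0.1, the smallest value that 3 against 3 libraries allow. PC2 differed from Non surgery by -4.22 points (exact p = 0.1) and from Luc by 0.392 points (exact p = 0.4). The last value was 0.627 points without Luc replicate 1 and 0.227 points without Luc replicate 2. In RNA of a whole tissue, fewer cells rich in mitochondria and less mitochondrial RNA per cell cannot be told apart.

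**Figure D1:**
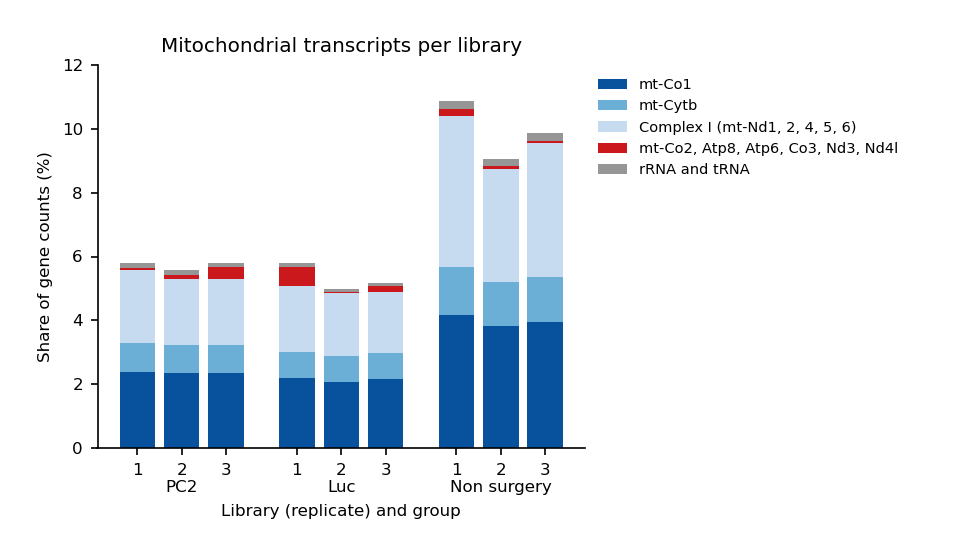
Share of all gene counts (%, vertical axis) taken by mitochondrial genes in each of the 9 libraries, stacked by gene class, with PC2, Luc and Non surgery from left to right. The bars of the 6 operated libraries reach between 4.998% and 5.80%, those of Non surgery between 9.05% and 10.9%, and the red band of 6 genes is the class that varies most between repeats of a pool.

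The first comparison sets operated joints that had the Luc virus against joints without an operation. Of the 16 genes tested, 10 fell in Luc against Non surgery libraries, 0 rose and 6 did not pass. Among all 17478 genes, 58.8% passed in the same comparison, 27.7% lower and 31.1% higher (4848 lower and 5431 higher; with scaling by library size only, 3304 lower and 7754 higher). The 10 that fell were both rRNA genes, mt-Nd1, mt-Nd2, mt-Nd4, mt-Nd5, mt-Nd6, mt-Co1, mt-Cytb and mt-Tp. The median over all 16 genes tested was -1.002, and over the 13 protein-coding genes -0.995. Over all 16 the log2 fold changes ranged from -1.63 to 1.28, and the median over all genes tested was 0.02. The 10 genes without mt-Tp had a median log2 fold change of -1.10, with a range of -1.63 to -0.995. They were grouped after their values were seen and all had passed as lower, so their shared sign follows from that choice. In each of these 9 genes the Luc and Non surgery libraries did not overlap, but the share of all genes without overlap is not given here.

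Of the respiratory chain mRNAs, mt-Co1 was the most abundant per length in every group. It encodes the catalytic core subunit of complex IV, cytochrome c oxidase. Its level was 21383, 19940 and 20871 CPM in Luc libraries, against 45225, 41135 and 42269 CPM in Non surgery libraries. All Luc libraries were at about the same level and well under the lowest Non surgery library. The log2 fold change was -1.05 ± 0.028 (SE), a 2.07-fold lower level (adjusted p = 5.51e-15, edgeR). mt-Cytb, the one subunit of complex III that mitochondria encode, averaged 7776 ± 61.6 CPM in Luc and 15502 ± 799 CPM in Non surgery libraries, 1.99-fold lower in Luc (adjusted p = 6.3e-15).

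The 5 complex I mRNAs that passed the test fell by different amounts. mt-Nd5 had 3922, 4028 and 3785 CPM in Luc libraries, against 13884, 10405 and 11954 CPM in Non surgery libraries. This was the largest fall among the mitochondrial genes, 3.09-fold or -1.63 ± 0.071 on the log2 scale (adjusted p = 4.07e-12). mt-Nd6, the only protein gene on the minus strand of the reference, had 511, 587 and 516 CPM in Luc libraries and 1760, 1162 and 1604 CPM in Non surgery libraries, 2.80-fold lower in Luc (adjusted p = 1.99e-09). mt-Nd1, mt-Nd2 and mt-Nd4 encode further membrane subunits of complex I and were 2.13-fold, 2.14-fold and 2.01-fold lower in Luc. mt-Nd2 was the most variable of the 5, with 12363, 7024 and 10178 CPM in Non surgery libraries. The labelled kit does not keep strand, so reads of mt-Nd6 and of RNA from the opposite strand cannot be told apart, and mt-Nd6 shares 14 bases with mt-Nd5.

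Because mt-Nd5 and mt-Co1 are both carried on the plus strand, their ratio was compared as well, a pair chosen after its values were seen. Per 100 mt-Co1 counts there were 18.9 ± 1.08 mt-Nd5 counts in PC2, 18.9 ± 1.14 in Luc and 28.1 ± 2.71 in Non surgery libraries (SD, n = 3 each). The operated libraries ranged from 18.0 to 20.2 and the Non surgery libraries from 25.3 to 30.7, with no overlap (exact permutation p = 0.1 for Luc and for PC2 against Non surgery). By contrast mt-Co1 took 41.5% ± 0.767 of mitochondrial counts in PC2, 40.5% ± 2.09 in Luc and 40.2% ± 2.02 in Non surgery libraries, which overlapped (exact p from 0.5 to 1).

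The rRNAs of the mitochondrial ribosome fell beside the mRNAs. mt-Rnr1, the small subunit rRNA, had 446, 435 and 419 CPM in Luc libraries, against 1081, 916 and 1071 CPM in Non surgery libraries, 2.36-fold lower in Luc (adjusted p = 2.78e-12). mt-Rnr2, the large subunit rRNA, averaged 639.5 ± 16.2 CPM in Luc and 1560 ± 267 CPM in Non surgery libraries, 2.44-fold lower in Luc (adjusted p = 1.2e-09). Both rRNAs together made up 2.10% ± 0.138 of mitochondrial counts in Luc and 2.41% ± 0.175 in Non surgery libraries (exact permutation p = 0.2). Whether libraries were made by poly(A) selection or rRNA depletion was not given, and either sets how much rRNA is counted.

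Among the 22 tRNA genes, which are 59 to 75 bases long, 19 had 0 counts in all 9 libraries. For counting error alone, a count of 0 allows up to 3 counts per library, or at most 0.18 CPM. Most tRNA genes lie within a few bases of a neighbouring gene, and HTSeq by default leaves a read that touches both unassigned. The counts of 0 therefore set no upper limit on the level of these tRNAs. mt-Tc, the cysteine tRNA gene, had 1 count in 1 Non surgery library, and mt-Te, the glutamate tRNA gene, had 2 counts over the Non surgery libraries. mt-Tp stood apart from them with 498 to 1553 counts per library. It averaged 36.4 ± 6.19 CPM in Luc and 65.1 ± 26.6 CPM in Non surgery libraries, and the log2 fold change of -0.84 ± 0.22 passed the test (adjusted p = 0.00399) although libraries of the 2 groups overlapped. Without Non surgery replicate 1 it was -0.50 (adjusted p = 0.031).

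**Figure D2:**
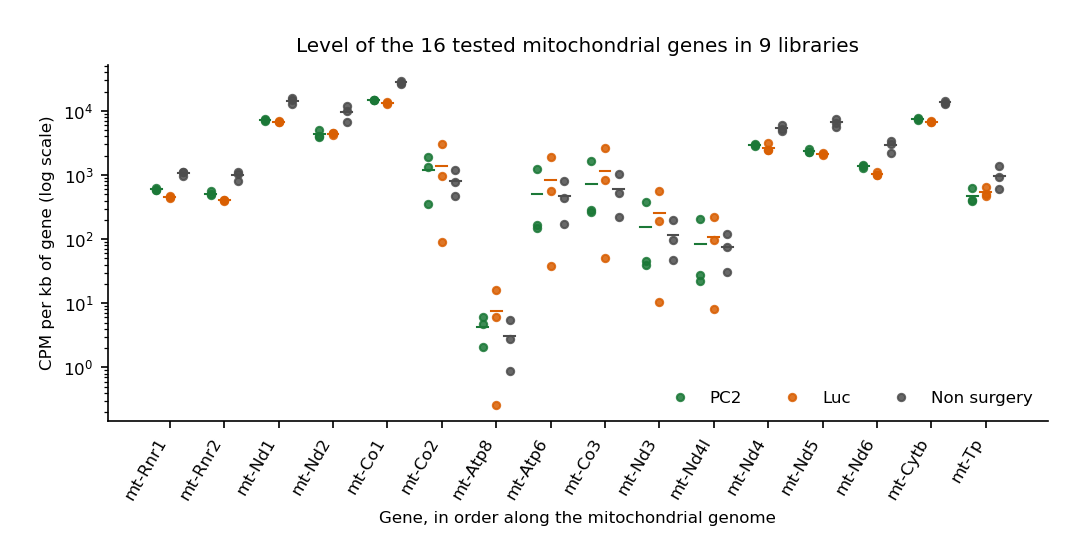
Level of the 16 tested mitochondrial genes in CPM per kb (log axis), ordered along the genome, with 1 point per library and a short line at the mean of PC2, Luc and Non surgery from left to right within a gene. Outside the block from mt-Co2 to mt-Nd4l and mt-Tp, the Non surgery points lie above the PC2 and Luc points, and within the block the repeats of a pool are spread over a wide range.

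Per length, the order of levels was alike at the top in all groups. In PC2 libraries mt-Co1 was highest with 14827 ± 167 CPM per kb, followed by mt-Cytb with 7462 ± 141, mt-Nd1 with 7245 ± 264, mt-Nd2 with 4344 ± 635, mt-Nd4 with 2956 ± 133 and mt-Nd5 with 2372 ± 161 CPM per kb. Among these neighbours, the PC2 libraries overlapped only between mt-Cytb and mt-Nd1. In Luc libraries the same 6 genes stood in the same order, and mt-Cytb and mt-Nd1 overlapped there too. In Non surgery libraries mt-Nd1 (14454 ± 1405 CPM per kb) and mt-Cytb (13551 ± 699) overlapped, and mt-Nd5 (6623 ± 956) stood before mt-Nd4 (5372 ± 535), again with overlapping libraries. mt-Rnr1 had only 602 ± 28.2 CPM per kb in PC2, 454 ± 14.2 in Luc and 1071 ± 96.6 in Non surgery libraries.

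The second comparison sets the PC2 virus against the Luc virus in operated joints. Of the 16 genes tested, 5 rose in PC2 against Luc libraries, 0 fell and 11 did not pass, while 34.7% of all genes passed, 16.1% higher and 18.6% lower. The rises were small. mt-Rnr1 had 606, 559 and 561 CPM in PC2 libraries, against 446, 435 and 419 CPM in Luc libraries, with no overlap and a log2 fold change of 0.41 ± 0.052 (adjusted p = 1.55e-05, edgeR). mt-Rnr2 had 880, 788 and 763 CPM in PC2 libraries and 655, 641 and 623 CPM in Luc libraries (log2 fold change 0.34 ± 0.085, adjusted p = 0.00523).

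mt-Nd6 rose by a similar amount, with 751, 710 and 666 CPM in PC2 libraries, against 511, 587 and 516 CPM in Luc libraries (log2 fold change 0.40 ± 0.10, adjusted p = 0.00626). mt-Co1 and mt-Cytb each rose 1.10-fold, mt-Co1 to 22908 ± 257 CPM in PC2, against 20731 ± 732 CPM in Luc libraries (adjusted p = 0.000701), and mt-Cytb to 8537 ± 161 CPM in PC2, against 7776 ± 61.6 CPM in Luc libraries (adjusted p = 0.000882). The median over the 9 genes named in the first comparison was 0.15 on the log2 scale, beside 0.01 over all genes tested. Over all 16 mitochondrial genes tested it was 0.03 (5 rose, 0 fell), and over the 13 protein-coding genes -0.03. mt-Nd1 (0.09 ± 0.047), mt-Nd4 (0.15 ± 0.076) and mt-Nd5 (0.15 ± 0.070) did not pass, with adjusted p = 0.129, 0.151 and 0.12, and mt-Nd2 measured -0.03 ± 0.14.

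The 5 rises passed whichever library was left out, while other genes near the threshold moved across it. With only the PC2 and Luc libraries in the fit, mt-Nd1 (0.10, adjusted p = 0.000959) and mt-Nd5 (0.15, adjusted p = 0.00222) passed as well, which made 7. Of all 17077 genes in that fit, 6591 passed. Without Non surgery replicate 1, which enters the shared estimate of spread, mt-Nd1 and mt-Nd5 passed with adjusted p = 0.0308 and 0.0202, and without Non surgery replicate 2 they passed with adjusted p = 0.00702 and 0.0149. Without Luc replicate 1, mt-Nd4 passed at 0.27 (adjusted p = 0.00218). The sign of mt-Nd2 changed without PC2 replicate 2 (0.020) or PC2 replicate 3 (0.047).

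The make-up of the mitochondrial counts was compared between PC2 and Luc libraries. rRNA was 2.51% ± 0.145 of mitochondrial counts in PC2 and 2.10% ± 0.138 in Luc libraries (SD, n = 3 each), with no overlap (exact permutation p = 0.1). mt-Nd6 had 16.4 ± 0.408 counts per 100 mt-Nd5 counts in PC2 and 13.7 ± 0.773 in Luc libraries (exact permutation p = 0.1), a ratio chosen after its values were seen. In all, 66 such tests of shares and ratios were made over the 3 comparisons, and after Benjamini-Hochberg adjustment the lowest value was 0.169, so none passed; with 3 libraries a group none could.

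Against unoperated joints, PC2 libraries had 10 genes lower (the 9 genes and mt-Tp), 0 higher and 6 that did not pass, while 62.7% of all genes passed, 31.2% lower and 31.5% higher (5447 lower and 5505 higher; with scaling by library size only, 3761 lower and 7607 higher). This comparison shares the Non surgery libraries with the first. Over all 16 genes tested the median was -0.86, and over the 9 genes it was -0.94 on the log2 scale, from -1.48 in mt-Nd5 to -0.83 in mt-Rnr1, beside 0.01 over all genes. mt-Nd5 averaged 4327 ± 294 CPM in PC2 and 12081 ± 1743 CPM in Non surgery libraries, 2.79-fold lower in PC2 (adjusted p = 1.35e-11, edgeR). mt-Co1 was 1.87-fold lower in PC2 (adjusted p = 3.73e-14), and mt-Rnr1 1.78-fold lower (adjusted p = 5.03e-10).

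**Figure D3:**
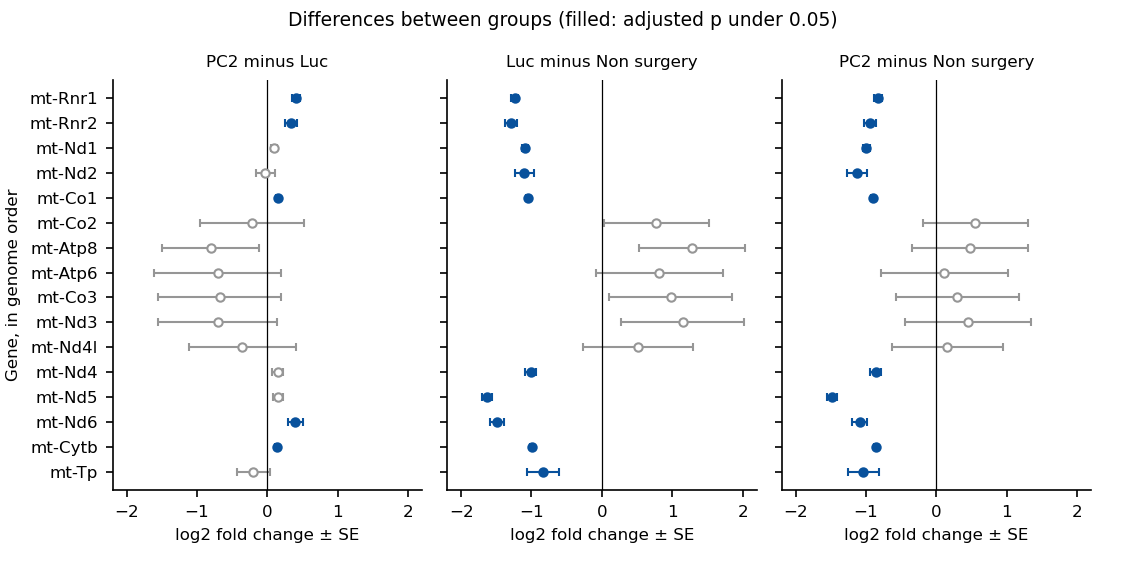
Log2 fold change ± SE of the 16 tested genes in genome order (top to bottom) for PC2 minus Luc, Luc minus Non surgery and PC2 minus Non surgery, with filled points where the adjusted p was under 0.05. Between operated and unoperated joints, 10 genes lie left of 0 with small errors, and the 6 genes from mt-Co2 to mt-Nd4l have errors of 0.69 to 0.90 in every panel.

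The 6 genes that did not pass against unoperated joints lie side by side in the genome. They are mt-Co2 and mt-Co3, the other core subunits of complex IV, mt-Atp8 and mt-Atp6, membrane subunits of ATP synthase, and mt-Nd3 and mt-Nd4l, small subunits of complex I. Their fitted log2 fold changes in Luc against Non surgery libraries were 0.51 to 1.28 with a median of 0.90, and adjusted p lay between 0.158 and 0.599. Against Luc, PC2 libraries gave -0.81 to -0.22.

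In these genes the technical repeats of 1 pool differed widely. mt-Co2 had 240, 904 and 1297 CPM in PC2 libraries, 2115, 62.0 and 669 CPM in Luc libraries and 815.5, 528 and 319.8 CPM in Non surgery libraries. mt-Co3 had 211, 227 and 1285 CPM in PC2, 2074, 40.0 and 645 CPM in Luc, and 815, 411 and 176 CPM in Non surgery libraries. The Luc libraries of these genes spanned the range of both other groups.

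Within a group, the highest library was 2.55 to 62.9 times the lowest in the 6 genes. In the 9 genes named before it was 1.02 to 1.76 times, and over the 10577 genes with at least 10 CPM its 99th percentile was 1.37 in PC2, 1.37 in Luc and 1.53 in Non surgery libraries. All 6 genes were highest in PC2 replicate 3, Luc replicate 1 and Non surgery replicate 1, and all 6 lowest in PC2 replicate 1, Luc replicate 2 and Non surgery replicate 3. Together they took 10.2% of mitochondrial counts in Luc replicate 1 and 0.279% in Luc replicate 2. Without these 6 genes the mitochondrial share was 5.54% ± 0.167 in PC2, 5.08% ± 0.139 in Luc and 9.82% ± 0.875 in Non surgery libraries, and PC2 and Luc libraries no longer overlapped (exact permutation p = 0.1). The 6 genes were grouped after their values were seen, and with them in the share the libraries overlapped (exact permutation p = 0.4).

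Single libraries set the sign of several of these values. Without Luc replicate 1, Luc against Non surgery libraries gave -0.60 for mt-Co2, -0.65 for mt-Atp6, -0.45 for mt-Co3, -0.19 for mt-Nd3 and -0.56 for mt-Nd4l. Without Luc replicate 2, mt-Co2 (1.33, adjusted p = 0.0434) and mt-Atp8 (1.85, adjusted p = 0.0093) passed as higher in Luc. Without PC2 replicate 3, mt-Nd3 passed as lower in PC2 than in Luc (-2.58, adjusted p = 0.0465).

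The same stretch of the genome has a nuclear copy. Mouse chromosome 1 carries a fragment of mitochondrial DNA that is annotated as a row of pseudogenes at chr1:24611535-24616197 (GRCm38, minus strand). Each mitochondrial gene was cut into overlapping 50-base windows, and each window was searched in the GENCODE M21 transcripts of all nuclear genes. For mt-Co2, mt-Atp6, mt-Co3, mt-Nd3 and mt-Nd4l, 98.0% to 100% of windows were found unchanged. The copy Gm28661 matched mt-Co2 over 681 bases with 0 differences, Gm28437 matched mt-Co3 over 783 bases with 0, and Gm28438 matched mt-Nd3 over 345 bases with 1. mt-Nd4 (62.2% of windows) and mt-Co1 (51.1%) were copied in part, mt-Nd2 (8.2%), mt-Nd5 (7.6%) and mt-Rnr2 (1.0%) little, and no window was found of mt-Rnr1, mt-Nd1, mt-Nd6, mt-Cytb, mt-Atp8 or mt-Tp. Of the mt-Co1 windows, 28.7% lay in the chromosome 1 copy and 27.5% in Gm13340 on chromosome 2. The windows of mt-Nd2, mt-Nd5 and mt-Rnr2 lay in copies on chromosomes other than 1.

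Stretches of 60 bases show how close the copies are. The first pair is the start of mt-Nd3 (chrM:9459-9518, plus strand) and its copy Gm28438 (chr1:24613060-24613119, minus strand), where the capital marks the only difference, T3C, counted from the 5′ end of mt-Nd3. The second pair is the point in mt-Co1 (chrM:6381-6440, plus strand) where the annotated copy Gm29216 begins (chr1:24616138-24616197, minus strand). Its 6 differences, in capitals and counted from the 5′ end of mt-Co1, are T1056A, C1057T, A1059G, A1060G, C1062A and A1066T, and the other 54 bases are the same. These 6 differences all lie at positions 1056 to 1066, and the rest of the 492 aligned bases shows none. Whether the first bases of Gm29216 belong to the fragment of mitochondrial DNA was not tested. Sequences are from GENCODE M21 transcripts, GRCm38.
mt-Nd3: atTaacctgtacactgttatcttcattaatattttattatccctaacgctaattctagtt
Gm28438: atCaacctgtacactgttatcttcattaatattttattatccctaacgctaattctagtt
mt-Co1: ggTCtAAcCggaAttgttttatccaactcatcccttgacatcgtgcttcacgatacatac
Gm29216: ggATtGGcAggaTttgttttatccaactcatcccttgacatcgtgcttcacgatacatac

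A read inside such a stretch aligns equally well to both places, and the labels do not say by which rule it was placed or dropped. The HTSeq line for reads that align to more than 1 place held 0 in all libraries. Counts of these 5 genes and of their copies are therefore uncertain. The same holds for mt-Nd4 and mt-Co1 over the copied part of their length, and so for their levels, ratios and tests above. In Luc libraries mt-Nd4 had 4290, 3396 and 3349 CPM, highest in replicate 1 as mt-Co2 was. The copies of mt-Co2, mt-Atp6, mt-Co3, mt-Nd3 and mt-Nd4l varied less between repeats than the mitochondrial rows did. Like mt-Co2, Gm28661 was highest among the Luc libraries in replicate 1, but its spread there was smaller than the 34.1-fold of mt-Co2. Gm28661 had 55.9, 48.9 and 39.8 CPM in PC2, 158, 49.0 and 44.5 CPM in Luc and 115, 71.2 and 102.5 CPM in Non surgery libraries, and its spread of 3.55-fold in Luc was the highest among the 7 copies. In Luc against Non surgery libraries 6 of the 7 copies fell, among them Gm28437 (-0.80 ± 0.069, adjusted p = 3.13e-08), the copy of mt-Co3, while Gm28661 did not pass (-0.20 ± 0.33, adjusted p = 0.631). Of all genes tested, 27.7% fell there.

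mt-Atp8 had no copy among the transcripts searched but lies between copied genes and shares 43 bases with mt-Atp6. Its counts were very low, at 8 to 24 in PC2, 1 to 64 in Luc and 3 to 19 in Non surgery libraries. The overlap (chrM:7912-7984, plus strand) is given with the 43 shared bases in capitals, followed by the end of mt-Nd4l (chrM:10152-10188), whose last 7 bases, in capitals, are also the first of mt-Nd4. HTSeq by default leaves a read that touches both genes unassigned. The part of the nuclear copies and of the overlaps in the spread and in the low counts was not tested.
mt-Atp8 and mt-Atp6: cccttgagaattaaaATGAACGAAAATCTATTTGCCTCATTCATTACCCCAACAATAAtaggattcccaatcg
mt-Nd4l and mt-Nd4: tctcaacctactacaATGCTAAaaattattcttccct

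**Figure D4:**
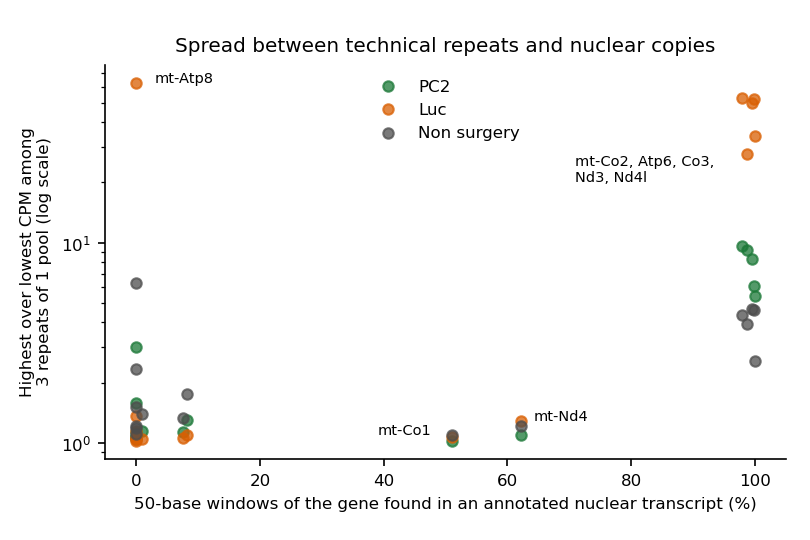
Highest over lowest CPM among the 3 technical repeats of a pool (log axis) against the share of a gene's 50-base windows found in an annotated nuclear transcript, for the 16 tested genes in PC2, Luc and Non surgery. The 5 genes at 98.0% or more have ratios of 2.55 to 52.7, mt-Atp8 at 0% reaches 62.9, and the other genes lie between 1.02 and 2.33. mt-Atp8 lies between copied genes, and nuclear sequence outside annotated transcripts was not searched.

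Nuclear genes for the respiratory chain had medians of the same sign as the 9 mitochondrial genes, which were grouped after their values were seen. The nuclear medians were nearer 0 in both operated groups against Non surgery and farther from 0 in PC2 against Luc libraries. In PC2 against Luc libraries all 16 mitochondrial genes tested had a median of 0.03, and the 13 protein-coding ones -0.03, the other sign. Of 79 nuclear subunit genes of complexes I to V tested, 72 fell and 2 rose in Luc against Non surgery libraries, with a median log2 fold change of -0.59, so 93.7% passed beside 58.8% of all genes. The falls were led by Cox8b (-1.49 ± 0.089), Cox6a2 (-1.47 ± 0.063) and Cox7a1 (-1.46 ± 0.13), the muscle forms of complex IV subunits. In PC2 against Luc libraries 64 rose and 0 fell, with a median of 0.29 (81.0% passed beside 34.7% of all genes), and Cox8b rose by 0.59 ± 0.092. In PC2 against Non surgery libraries 6 rose and 53 fell, with a median of -0.28 (74.7% passed beside 62.7% of all genes).

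By complex, the nuclear median in Luc against Non surgery libraries was -0.59 for complex I (33 of 36 fell), -0.81 for complex III (9 of 9), -0.54 for complex IV (11 of 14, with 2 higher) and -0.60 for complex V (15 of 16). Complex II, which has no mitochondrial-encoded subunit, had all 4 genes lower with a median of -0.83, led by Sdha, its flavoprotein subunit (-0.999 ± 0.031). The 13 genes of the TCA cycle all fell, with a median of -0.92. Of all genes tested, 27.7% fell in this comparison.

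The 9 mitochondrial genes had 7.57 ± 0.312 counts per count of the nuclear subunit genes in PC2, 7.85 ± 0.310 in Luc and 9.86 ± 1.21 in Non surgery libraries (SD, n = 3 each). The operated libraries lay between 7.37 and 8.14 and all Non surgery libraries at 8.69 or above (exact permutation p = 0.1 for either operated group against Non surgery, and 0.3 for PC2 against Luc). mt-Co1 had 24.1 ± 0.728 counts per count of nuclear complex IV genes in PC2, 27.7 ± 2.50 in Luc and 37.7 ± 3.72 in Non surgery libraries (exact permutation p = 0.1 for all 3 comparisons).

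Of 20 genes for transcription and replication of mitochondrial DNA, 7 fell and 3 rose in Luc against Non surgery libraries, with a median of -0.10, and the 50% that passed (35.0% lower) stand beside 58.8% of all genes (27.7% lower). Tfam, which packages mitochondrial DNA and starts its transcription, had 33.7 ± 0.769 CPM in Luc and 37.7 ± 2.60 CPM in Non surgery libraries (log2 fold change -0.16 ± 0.058, adjusted p = 0.024). Polrmt, the mitochondrial RNA polymerase, measured -0.27 ± 0.059 (adjusted p = 0.000925), and Tefm, its elongation factor, -0.71 ± 0.14. In PC2 against Luc libraries 1 of the 20 rose and 2 fell. Tfam (-0.08 ± 0.058) and Polrmt (0.10 ± 0.059) did not pass there.

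Of 29 genes for mitochondrial RNA processing and decay, 16 fell and 2 rose in Luc against Non surgery libraries (median -0.28), and 62.1% passed (55.2% lower), beside 58.8% of all genes (27.7% lower). Lrpprc, which stabilises mitochondrial mRNAs, averaged 61.0 ± 1.78 CPM in Luc and 107 ± 1.19 CPM in Non surgery libraries (-0.80 ± 0.044, adjusted p = 7.66e-11). In PC2 against Luc libraries 4 of the 29 rose and 3 fell, so 24.1% passed, beside 34.7% of all genes. Lrpprc measured -0.08 ± 0.045 there (adjusted p = 0.165). Of 71 mitochondrial ribosomal protein genes, 40 fell and 2 rose in Luc against Non surgery libraries (median -0.24), and 59.2% passed (56.3% lower), beside the same background. In PC2 against Luc libraries 24 rose and 0 fell (median 0.17), so 33.8% passed, all higher, beside 34.7% of all genes (16.1% higher).

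Among 13 regulators of mitochondrial biogenesis, 8 fell and 1 rose in Luc against Non surgery libraries. In all 69.2% passed (61.5% lower), beside 58.8% of all genes (27.7% lower). Ppargc1a, the coactivator PGC-1alpha that drives biogenesis in oxidative muscle, had 6.52 ± 0.671 CPM in Luc and 45.0 ± 1.002 CPM in Non surgery libraries, 6.89-fold lower in Luc (adjusted p = 6.03e-14). It had 8.11 ± 0.985 CPM in PC2 libraries, 1.24-fold above Luc (adjusted p = 0.0284). For import and membrane genes, 11 of 16 fell and 2 rose in Luc against Non surgery libraries (median -0.49). Of these 16 genes 81.2% passed (68.8% lower), beside the same shares of all genes.

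**Figure D5:**
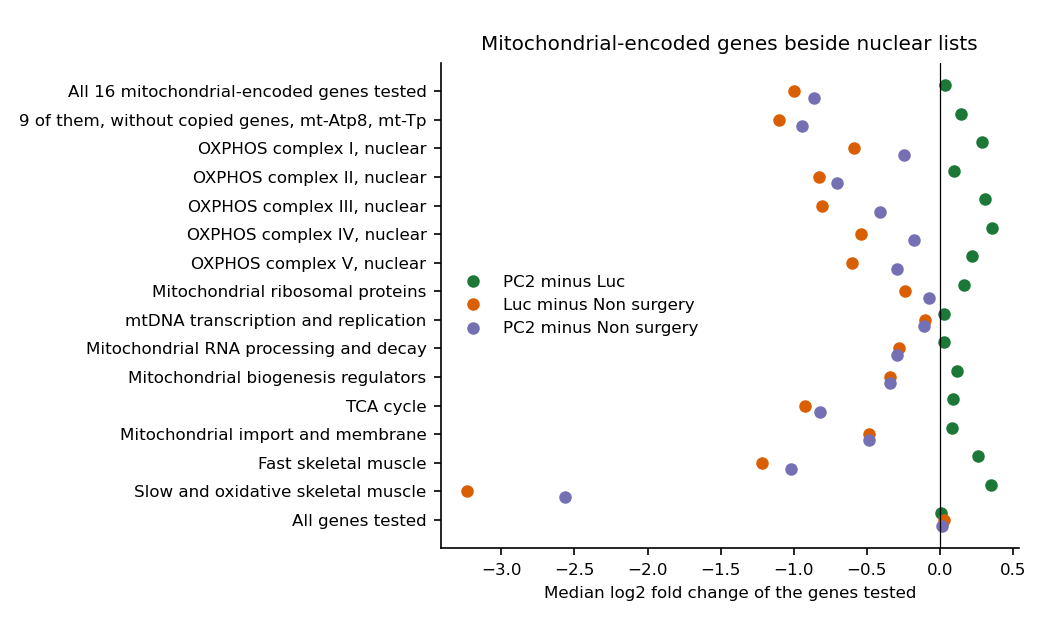
Median log2 fold change of the 16 tested mitochondrial-encoded genes, of 9 of them (without the 5 copied genes, mt-Atp8 and mt-Tp), of nuclear lists and of all genes tested, for PC2 minus Luc, Luc minus Non surgery and PC2 minus Non surgery. In Luc minus Non surgery all 16 lie at -1.002 and the 9 at -1.10, left of every nuclear mitochondrial list and right of both muscle lists, and in PC2 minus Luc all 16 lie at 0.03 and the 9 at 0.15.

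Skeletal muscle markers were also lower in operated than in unoperated joints. The summed level of 29 fast and slow muscle genes was 40307 to 40386 CPM in PC2, 34559 to 35073 CPM in Luc and 85048 to 87932 CPM in Non surgery libraries, and none of the 29 was at 0. The 11 slow and oxidative genes among them summed to a mean of 1407 CPM in PC2, 1149 in Luc and 4958 in Non surgery libraries. Their median log2 fold change in Luc against Non surgery libraries was -3.23, beside -1.215 for the 18 fast genes. The sum of the 29, and ratios to it, therefore follow mainly the fast genes. All 29 fell in Luc against Non surgery libraries, where 27.7% of all genes fell. In PC2 against Luc libraries 21 rose and 2 fell, beside 16.1% of all genes higher and 18.6% lower. Muscle genes took 4.18% of counts in PC2, 3.61% in Luc and 8.01% in Non surgery libraries. The 9 mitochondrial genes had 1.32 ± 0.0424 counts per muscle gene count in PC2, 1.40 ± 0.0306 in Luc and 1.23 ± 0.135 in Non surgery libraries (SD, n = 3 each; exact permutation p = 0.1 for Luc against Non surgery, 0.1 for PC2 against Luc and 0.3 for PC2 against Non surgery). With muscle genes taken out of the total, the mitochondrial share was 5.97% ± 0.134 in PC2, 5.53% ± 0.435 in Luc and 10.8% ± 0.975 in Non surgery libraries.

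Other cell types moved as well. The 14 cartilage genes summed to 10228 to 10361 CPM in PC2, 6475 to 6595 CPM in Luc and 1259 to 1412 CPM in Non surgery libraries, and 11 connective tissue genes to 54092 to 54676 CPM in PC2, 52158 to 53283 CPM in Luc and 12303 to 13915 CPM in Non surgery libraries. The 9 erythroid genes summed to 15280 to 15574 CPM in PC2, 13781 to 16080 CPM in Luc and 24523 to 26425 CPM in Non surgery libraries. No gene of these lists was at 0. Their part in the mitochondrial differences was not tested.

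Over the 9 libraries, the nuclear genes whose log2 CPM followed that of the 13 summed mitochondrial mRNAs most closely were Ccdc71l (Pearson r = 0.997), Btbd1 (r = 0.995), Ppm1a (r = 0.994), Coq5 (r = 0.993) and Aldh6a1 (r = 0.993), followed by Ulk2, Ccng1, Odc1, Mfn1 and Mmachc (r = 0.992 each). Coq5 is an enzyme of coenzyme Q synthesis, Aldh6a1 a mitochondrial dehydrogenase of valine breakdown, and Mfn1 a GTPase of mitochondrial fusion. The libraries fall into unoperated and operated ones, and these coefficients are a description only. Btbd1, for example, averaged 93.8 ± 1.01 CPM in PC2, 85.5 ± 3.498 CPM in Luc and 145 ± 11.5 CPM in Non surgery libraries.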

How the data were processed

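Per the labels' protocols, knee joint RNA was extracted with TRIzol, treated to remove genomic DNA and made into libraries with the NEBNext Ultra RNA kit. The authors deposited 1 table for each library, with raw read counts by Ensembl gene ID. Per the submitters' processing notes, the mm10 build, HISAT2, HTSeq and DESeq2 were used, with no version named; annotation release, strand setting and treatment of multiply aligned reads are not given in the sources used here. Summary lines of HTSeq entered neither library sizes nor tests. Symbols, lengths and sequences came from GENCODE M21 (GRCm38), which held 53274 of 53379 IDs.

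All 9 libraries entered 1 edgeR 4.0.16 quasi-likelihood fit (R 4.3.3) with a group factor, TMM factors and filterByExpr (minimum count 10), leaving 17478 genes. Tests were two-sided, with Benjamini-Hochberg adjustment over all genes and a threshold of 0.05, and SE was taken as the fold change (log2) divided by the root of the F statistic. The fit was also run on simulated counts with spread set by the trend over genes, so that run does not cover genes whose repeats differ widely. Shares and ratios had exact permutation tests (SciPy 1.17.1). Wilson intervals and the limit of 3 counts for a count of 0 cover counting error only. Chi-square per degree of freedom between repeats was 3.94 to 8.67, above counting noise in every pair.

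Every mt- gene could be named, plus up to 3 leading genes per nuclear list and the fixed genes Tfam, Polrmt, Lrpprc and Ppargc1a and the 10 most alike genes. The members and lists were chosen with earlier results of these data known, and the grouping into 9 genes and 6 genes was made after the copies and values were seen. Prorp and Ahsp were listed but not matched. A further gene fixed by name is not reported here. Alternatives were other scaling, no low-count filter, only the groups compared, a replicate block, DESeq2 1.42.0, each library left out, and, chosen after seeing the data, the 5 copied genes (and mt-Atp8, for shares) removed.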

Additional observations from a re-analysis of the deposited data

How the results depend on the processing

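Scaling with RLE factors, scaling by library size only, DESeq2, the removal of the copied genes and TMM factors computed without the mitochondrial genes kept the counts of mitochondrial genes that passed at 10 (Luc against Non surgery), 5 (PC2 against Luc) and 10 (PC2 against Non surgery). Leaving out each library gave 10 to 12, 5 to 7 and 10 to 10, while 9552 to 10279, 4921 to 6550 and 10239 to 10978 of all genes passed. With only the groups compared in the fit the counts were 10, 7 and 10, beside 9928 of 16952, 6591 of 17077 and 10665 of 16995 genes. With no low-count filter 16 genes passed in Luc against Non surgery (6 higher, 10 lower), beside 10587 of all 31907 genes. In PC2 against Luc 14 passed (8 higher, 6 lower), beside 6171, and in PC2 against Non surgery 14 (4 higher, 10 lower), beside 11311. That fit assumed no variation of spread between genes (infinite prior degrees of freedom, against 9.73 with the filter). With library size as the only scaling, the median over all genes became 0.19 in Luc against Non surgery and 0.17 in PC2 against Non surgery. Replicate numbers do not pair the samples: deviations of same-numbered libraries correlated at -0.027 to 0.057. With a replicate block 8 genes passed in PC2 against Luc, beside 6192 of all 17478 genes. In the same fit mt-Atp6 turned to -0.021 (Luc against Non surgery) and -0.21 (PC2 against Non surgery). mt-Co2 turned to 0.41 (PC2 against Luc) and mt-Nd4l to -0.033 (PC2 against Non surgery). The cause was not tested. Leaving out each library in turn changed the sign of uncalled values, with these log2 ranges. Luc against Non surgery gave -0.60 to 1.33 for mt-Co2, -0.65 to 1.43 for mt-Atp6, -0.45 to 1.64 for mt-Co3, -0.19 to 1.82 for mt-Nd3 and -0.56 to 1.06 for mt-Nd4l. PC2 against Luc gave -0.77 to 1.16 for mt-Co2, -1.37 to 0.45 for mt-Atp8, -2.41 to 0.76 for mt-Atp6, -2.07 to 0.75 for mt-Co3, -2.58 to 0.63 for mt-Nd3, -2.13 to 0.71 for mt-Nd4l and -0.15 to 0.047 for mt-Nd2. mt-Tp kept its sign, with -1.10 to -0.50 in Luc against Non surgery. PC2 against Non surgery gave -1.59 to 0.73 for mt-Atp6, -1.09 to 0.96 for mt-Co3, -1.62 to 0.65 for mt-Nd4l and -1.43 to 1.12 for mt-Nd3. The mitochondrial share differed by 0.227 to 0.627 points between PC2 and Luc. The difference in mt-Nd5 counts per 100 mt-Co1 counts between PC2 and Luc ranged from -0.617 to 0.641, and that in mt-Rnr2 counts per 100 mt-Rnr1 counts between Luc and Non surgery from -11.5 to 1.25. The share of gene counts taken by mt-Atp8 and the 5 copied genes differed by -0.0300 to 0.260 points (Luc against Non surgery), -0.202 to 0.0880 (PC2 against Luc) and -0.0350 to 0.123 (PC2 against Non surgery). No call of the 10, 5 and 10 genes was lost under the alternatives run. Counts were low in mt-Atp8 and, apart from mt-Tp, in the tRNA genes.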
